A study of Mus musculus with 166 samples.

Results

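The genes described here are the neuromodulator and metabotropic receptors of the mouse cerebellum: metabotropic glutamate and GABA-B receptors and the G protein-coupled receptors for acetylcholine, serotonin, noradrenaline, dopamine, histamine, adenosine, cannabinoids, opioids, somatostatin, neuropeptide Y, oxytocin and orexin. Members were chosen by gene symbol alone, and a level of at least 0.1 CPM (the gene's share of the library's total, scaled as is usual) in at least 8 libraries was asked of each. Of 65 symbols that matched, 60 reached that level, and Npy4r, Hrh4, Sstr5, Npy6r and Grm6 did not. The 60 are part of 20331 genes that passed the same level, out of 39179 in the table.

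Poly(A) RNA was sequenced from the cerebellum of heterozygous C57BL/6 mice of the Htt knock-in series, in which the second allele holds a human HTT first exon with a longer CAG run, and from wild type mice. The expanded lines were Q80, Q92, Q111, Q140 and Q175, and WT and Q20 served together as controls, the mouse gene itself having a CAG length of 7. Males and females of 2, 6 and 10 months gave 166 libraries, with 8 for each genotype and age other than the 10 month Q111 and Q140 groups (n = 7). The knock-in allele is present in every cell, and each library is whole tissue, so fewer cells of a type and less RNA per cell cannot be told apart in any value below. The labels do not say which libraries were prepared together.

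These receptors sit in the cell membrane and pass a transmitter signal on through a G protein. Members that couple to Gi or Go lower cyclic AMP, open potassium channels and hold back transmitter release, those that couple to Gq raise calcium through phospholipase C, and those that couple to Gs raise cyclic AMP. In the cerebellum, granule cell axons carry presynaptic GABA-B, adenosine A1, CB1 and mGlu4 receptors, which dampen their release of glutamate onto Purkinje cells.

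Totals ran from 23448953 to 43066107 counts per library, so that 0.1 CPM stood for between 2.34 and 4.31 counts. Cerebellar markers were high in each group (granule cell markers summed to between 4530 and 6510 CPM over 166 libraries, Purkinje cell markers to between 5010 and 9120 CPM). Reads of long transcripts were under-represented in 21 libraries, 16 of them at 2 months, 3 at 6 months and 2 at 10 months (Q92 M2 and Q80 F1). Among the 10 month libraries, Q92 M2 stood farthest apart. It entered the shared estimate of spread, and the receptors called in Q175 at 10 months are also given without it. Choroid plexus markers summed to between 15 and 11800 CPM, and 84 of 166 libraries held at least 64 CPM of them. Sex-linked genes went against the label in 2 libraries, a 10 month Q20 female (F5) and a 2 month Q80 male (M2).

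The level of the receptors was first compared among themselves, on the FPKM scale, which takes transcript length into account. In the 16 control libraries of 10 months, 5 receptors had a mean of at least 10 FPKM, 17 lay between 1 and 10, 32 between 0.1 and 1, and 6 under 0.1. Gabbr1, the ligand-binding subunit of the GABA-B receptor, led with 188 ± 5.4 FPKM (SD, n = 16). Its range did not reach that of Cnr1, the CB1 cannabinoid receptor, at 88 ± 5.85 FPKM. Cnr1 and Grm4, the presynaptic glutamate receptor mGlu4 at 65.4 ± 9.97 FPKM, overlapped in their ranges, as did Grm4 and Adora1, the adenosine A1 receptor at 52.9 ± 2.06 FPKM. Gabbr2, the subunit that GABA-B needs to reach the surface, followed at 44.8 ± 1.89 FPKM and lay below every Adora1 value.

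**Figure D1:**
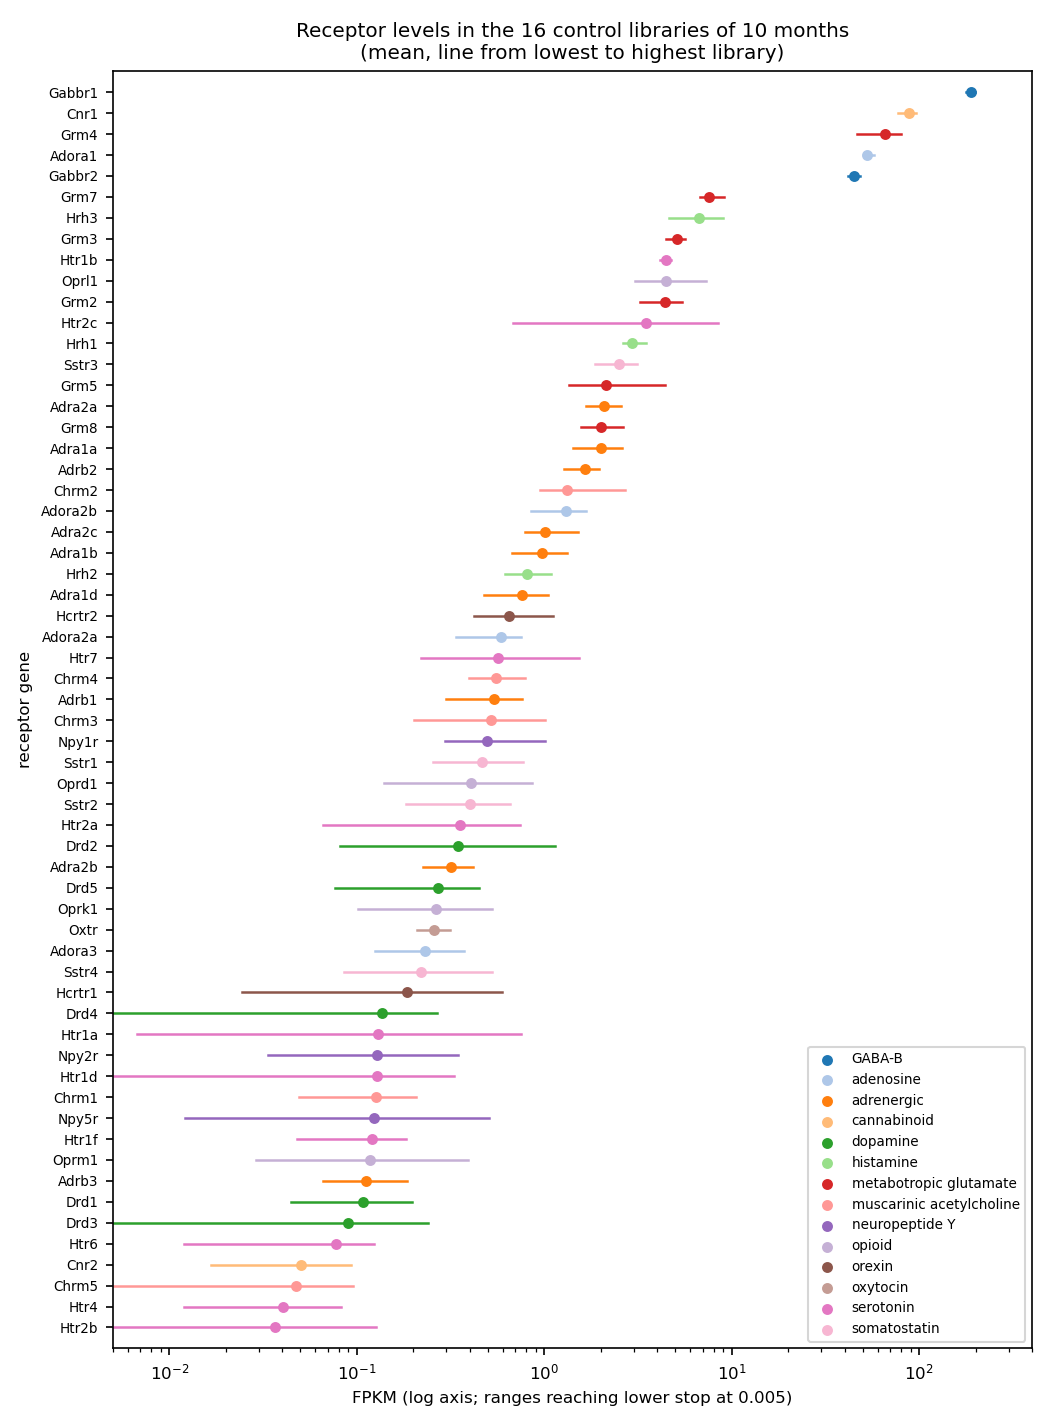
FPKM of the 60 receptors in the 16 control libraries of 10 months on a log axis, with the mean as a point and a line from the lowest to the highest library, coloured by receptor family. Gabbr1, Cnr1, Grm4, Adora1 and Gabbr2 stand apart from the other 55, the next being Grm7 at 7.58 FPKM.

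A gap in level separated these 5 from the remaining receptors. Grm7, another presynaptic metabotropic glutamate receptor, came next at 7.58 ± 0.651 FPKM, and its lowest library (6.75 FPKM) lay below the highest one of Hrh3, the histamine autoreceptor H3 (8.95 FPKM). From Grm7 down, each receptor overlapped its next neighbour in range, so the order of neighbours is not resolved. Receptors farther apart did separate, as Grm7 did from Htr1b (highest library 4.75 FPKM). Monoamine, acetylcholine and peptide receptors were mostly low: Htr1b, a presynaptic serotonin receptor, had 4.48 ± 0.203 FPKM and Adra2a, an inhibitory noradrenaline receptor, 2.08 ± 0.287 FPKM. Dopamine receptors were at or below 0.348 FPKM in the mean, the level of Drd2. Spread also differed widely. Htr2c, a serotonin receptor strongly expressed by choroid plexus epithelium, ran from 0.685 to 8.44 FPKM in these 16 libraries, and Htr1a, the inhibitory serotonin 1A receptor, from 0.0067 to 0.748 FPKM.

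For Q175 against the controls, the question was which receptors changed with the longest repeat. At 10 months 9 of 60 receptors passed the test, 3 higher and 6 lower, where 9.94% of all tested genes did. Sstr3, Adra2c and Oxtr rose, and Grm4, Grm3, Hrh3, Hrh1, Htr7 and Drd2 fell. At 6 months Grm4 and Hrh3 passed, both lower (3.45% of all genes). At 2 months no receptor did, with 1 gene called of 20331 (0.00492%). There 3 of the receptors and 621 of all genes had an unadjusted p under 0.05. DESeq2 also called no receptor at 2 months. The median log2 fold change of the 60 receptors at 10 months was -0.20, against 0.00 for all genes. Of the 60, 9 lay above 0, as did 50.1% of all genes. Receptor medians at that age were also below 0 in Q80 (-0.13, 16 above 0), Q92 (-0.13, 18), Q111 (-0.04, 23) and Q140 (-0.16, 22). All genes had medians from -0.005 to 0.001 there. A lower median was thus not particular to Q175, and these lines share its controls. Leaving out the 10 month Q92 library M2 raised the count at 10 months to 19 receptors, 4 higher and 15 lower, among them the 9 named. The 10 it added were Chrm4, which was higher, and Cnr1, Grm7, Gabbr1, Gabbr2, Htr1a, Htr1b, Npy1r, Chrm2 and Adora2b, which were lower, with adjusted p from 0.00244 (Cnr1) to 0.0445 (Htr1a). Fitting the under-representation of long transcripts as a covariate gave 19 as well, 3 higher and 16 lower. The share of 9.94% belongs to the fit with all libraries and without that covariate. Shares of all genes in these refits are not given here, so neither count of 19 can be set against it.

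**Figure D2:**
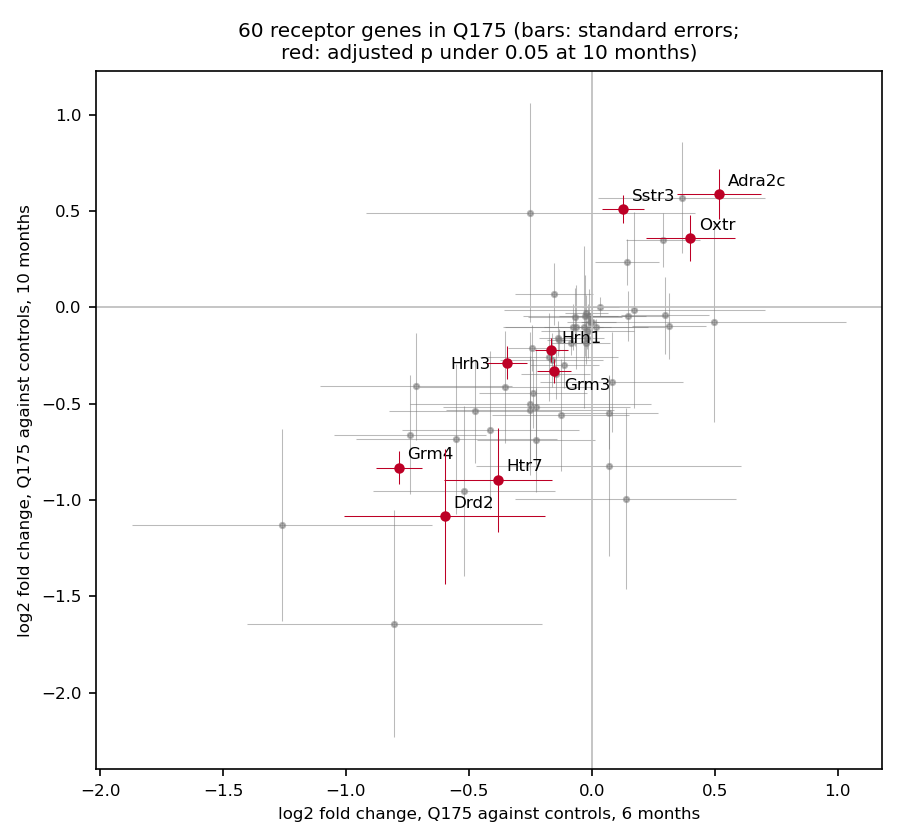
Log2 fold change of Q175 against controls for the 60 receptors, at 6 months (horizontal) and 10 months (vertical), with standard errors as bars and the 9 receptors called at 10 months in red. Grm4 lies near -0.8 on both axes, Adra2c and Oxtr lie above 0 on both, and Sstr3 has 0.13 at 6 months against 0.51 at 10 months.

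Grm4 had the smallest adjusted p of the receptors in Q175 at 6 and at 10 months. At 10 months its level in WT was 205 CPM in the lowest library, 303 in the median and 360 in the highest, and in Q20 235, 280 and 335 CPM. The Q175 libraries held 132, 157 and 220 CPM. The groups overlapped through the highest Q175 library (M4) and the lowest WT library (F2), and every one of 8 Q175 libraries lay below the control median. The mean was 163 ± 27.5 CPM in Q175 (SD, n = 8) against 290 ± 45.2 in controls (n = 16), a log2 fold change of -0.83 (SE 0.087, adjusted p = 1.9e-10). The gene lies on chromosome 17 (27422387 to 27521403, minus strand, GRCm38).

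At 6 months the fall of Grm4 was about as large. WT libraries held 361, 390 and 434 CPM (lowest, median, highest) and Q175 libraries 208, 232 and 244 CPM, with no overlap between them. The Q20 libraries ranged more widely, from 228 to 440 CPM, and reached into the Q175 range. The log2 fold change was -0.78 (SE 0.093, adjusted p = 2.8e-08). At this age the WT and Q175 libraries share a name format that the other lines do not have, and with that format as a covariate the value rests on Q175 against WT. Without the covariate 5 receptors passed at 6 months. Against Q20 alone the Grm4 value was -0.55, with an adjusted p of 0.000143. That fit holds no name format covariate, since Q175 and Q20 differ in format at this age. At 2 months Q175 held 271 to 387 CPM and controls 332 to 448 CPM, a log2 fold change of -0.25 (SE 0.069) that did not pass (adjusted p = 0.896), although 8 of 8 Q175 libraries lay below the control median.

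**Figure D3:**
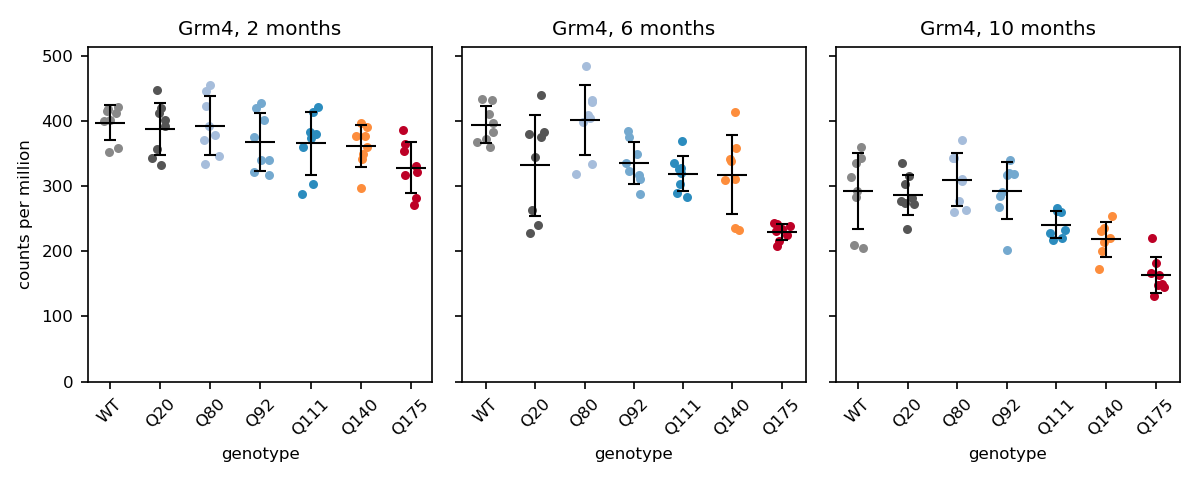
CPM of Grm4 by genotype in 3 panels for 2, 6 and 10 months, with a point per library and bars for mean ± SD. From the youngest to the oldest age the Q175 means were 329, 230 and 163 CPM and those of the controls 393, 364 and 290 CPM.

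Grm4 was lower in Q140 at 10 months as well. At 10 months the mean was 310 ± 40.9 CPM in Q80, 293 ± 43.7 in Q92 (n = 8 each), 241 ± 21.2 in Q111 and 218 ± 26.4 in Q140 (n = 7 each). Q140 passed against the controls (log2 fold change -0.40, SE 0.089, adjusted p = 0.0149), where 0.467% of all genes did, but not against WT or Q20 taken alone. Q111 had -0.24 (SE 0.088, adjusted p = 0.534). The slope on CAG length was -0.44 per 100 CAG at 10 months (SE 0.067, adjusted p = 5.62e-06) and -0.34 at 6 months (SE 0.055, adjusted p = 2.77e-05). At 6 months no line but Q175 passed. The log2 fold changes were 0.27 in Q80, 0.05 in Q92, -0.04 in Q111 and -0.07 in Q140 (SE 0.092 each, adjusted p from 0.68 to 0.999). With the name format as a covariate these values rest on Q20, while that of Q175 rests on WT. The lines of 6 months are thus not a series against the same controls. At 2 months the slope was -0.13 (SE 0.037, adjusted p = 0.79). The difference between the slopes of 10 and 2 months was -0.29 (SE 0.076, adjusted p = 0.0483).

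Across all receptors, the slope on CAG length called 9 at 10 months, where 6.25% of all genes passed. At 6 months it called 1, Grm4, where 4.02% of genes passed. Adding the signed Z values of both ages (Stouffer's method with equal weights) called 11 receptors (13.7% of all genes), 4 higher and 7 lower. Higher with CAG length were Sstr3 (Z = 5.59), Oxtr (4.81), Adra2c (4.03) and Chrm4 (3.19). Lower were Grm4 (-7.73), Grm3 (-4.32), Hrh3 (-4.05), Htr7 (-3.42), Adra2a (-3.28), Adora2b (-3.21) and Cnr1 (-2.77). The Htr7 call on this slope was lost against WT alone and with choroid plexus markers as a covariate (highest adjusted p 0.0861). By coupling, as textbooks give it, a grouping made after the values were seen, 8 of 35 Gi or Go receptors were called (3 higher, 5 lower), 1 of 14 Gq receptors (Oxtr, higher) and 2 of 11 Gs receptors (Htr7 and Adora2b, lower).

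Of the receptors that rose, Sstr3, a somatostatin receptor found on neuronal cilia, rested on the most counts. At 10 months WT held 8.75, 9.56 and 12.2 CPM (lowest, median, highest), Q20 7.29, 9.8 and 11.6 CPM, and Q175 11.6, 13.3 and 17.4 CPM. The lowest Q175 library overlapped the upper end of the controls, and 8 of 8 lay above the control median. The mean of 13.9 ± 1.85 CPM in Q175 compared with 9.92 ± 1.25 in controls (log2 fold change 0.51, SE 0.075, adjusted p = 1.32e-06). Q140 had a mean of 11 ± 2.03 CPM and did not pass (0.19, SE 0.08, adjusted p = 0.477). At 6 months the Q175 value was 0.13 (SE 0.085, adjusted p = 0.634) and at 2 months -0.07 (SE 0.085, adjusted p = 1). The slope differed between 10 and 2 months by 0.27 per 100 CAG (SE 0.065, adjusted p = 0.0285), and 0.418% of genes passed that test, Sstr3 and Grm4 being the 2 receptors among them. The Sstr3 difference was not called on FPKM values or without the filter on low counts (highest adjusted p 0.0788).

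Adra2c, the alpha-2C receptor through which noradrenaline restrains release, rose as well. Its 10 month levels were 2.52, 3.22 and 4.86 CPM in WT, 2.56, 3.04 and 3.56 CPM in Q20, and 3.7, 4.76 and 6.56 CPM in Q175. The ranges of WT and Q175 overlapped, while every Q175 library lay above the Q20 libraries. The log2 fold change was 0.59 (SE 0.13, adjusted p = 0.00074). At 6 months it was 0.52 (SE 0.17, adjusted p = 0.0803), with 8 of 8 Q175 libraries above the control median. The other lines of 10 months had 0.14 in Q80 (SE 0.13), 0.44 in Q92 (SE 0.13, adjusted p = 0.0699), 0.03 in Q111 (SE 0.14) and 0.16 in Q140 (SE 0.13). Adra2c was thus not graded by repeat length at that age. Its 10 month slope (adjusted p = 0.0169) lost its call against WT alone (adjusted p = 0.173), while its combined slope kept its call under each alternative. Adra2a, another alpha-2 receptor, had -0.21 (SE 0.12, adjusted p = 0.341) in Q175 at 10 months, and its combined slope was negative (adjusted p = 0.0124), a call lost against WT alone and with choroid plexus markers as a covariate. Adra2a libraries at 10 months ran from 6.35 to 8.87 CPM in WT, from 6.31 to 9.8 in Q20 and from 5.22 to 8.99 in Q175.

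Oxtr, the oxytocin receptor, passed in 3 lines at 10 months. WT held 0.978, 1.19 and 1.23 CPM and Q20 0.954, 1.17 and 1.44 CPM. Levels were 0.81, 1.68 and 2.27 CPM in Q111, 1.25, 1.68 and 1.97 CPM in Q140, and 0.922, 1.68 and 1.82 CPM in Q175. Each of these lines overlapped the controls, and in Q175 6 of 8 libraries lay above the control median. The log2 fold changes were 0.51 in Q111 (SE 0.12, adjusted p = 0.0496), 0.50 in Q140 (SE 0.12, adjusted p = 0.0443) and 0.36 in Q175 (SE 0.12, adjusted p = 0.0427). In Q111, 0.31% of all genes passed, and Oxtr was the sole receptor. These calls sit at the threshold: for Q175 the call was lost in 15 of 24 fits that left out 1 library (Q175 F1, F4, M1, M2 or M4, Q20 F1, F3, F4, F5 or M3, or WT F1, F2, F3, M2 or M4; adjusted p from 0.0107 to 0.125 over the 24). The 3 comparisons share their control libraries. The slope at 10 months was 0.30 per 100 CAG (SE 0.071, adjusted p = 0.00394) and kept its call under each alternative run.

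Chrm4, the inhibitory M4 muscarinic receptor, was called on the combined slope (adjusted p = 0.0156, and 0.0591 with choroid plexus markers as a covariate). It held 1.28, 1.42 and 2.19 CPM in WT, 1.09, 1.45 and 1.99 CPM in Q20 and 1.32, 1.9 and 2.68 CPM in Q175 at 10 months. The groups overlapped over most of their ranges (log2 fold change in Q175 0.35, SE 0.14, adjusted p = 0.114). Without the Q92 library M2 it passed, with 0.34 (SE 0.11, adjusted p = 0.032). At 6 months it was 0.29 (SE 0.15, adjusted p = 0.466).

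**Figure D4:**
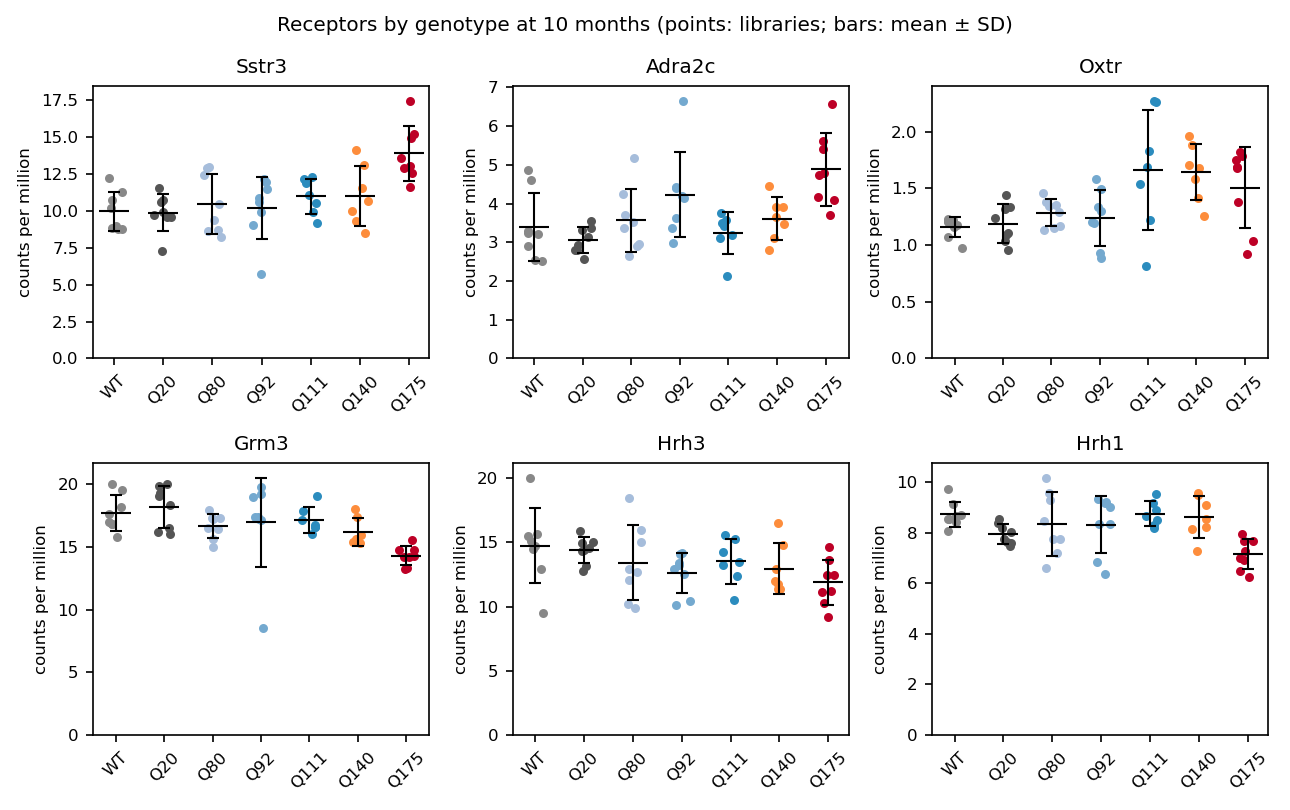
CPM at 10 months by genotype for Sstr3, Adra2c and Oxtr (upper row) and Grm3, Hrh3 and Hrh1 (lower row), with a point per library and bars for mean ± SD. Q175 libraries of Sstr3 lie between 11.6 and 17.4 CPM, those of Grm3 between 13.2 and 15.6 CPM, and the low Q92 point of Grm3 at 8.53 CPM is library M2.

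Among those that fell, Grm3, the mGlu3 receptor of astrocytes and Golgi cells, had no overlap between Q175 and the controls at 10 months. WT libraries held 15.8, 17.3 and 20 CPM, Q20 libraries 16, 18.7 and 20 CPM and Q175 libraries 13.2, 14.2 and 15.6 CPM. The means were 17.9 ± 1.53 CPM in controls and 14.3 ± 0.769 CPM in Q175 (log2 fold change -0.33, SE 0.062, adjusted p = 0.000107). Q140 had -0.15 (SE 0.064, adjusted p = 0.523) and Q175 at 6 months -0.15 (SE 0.07, adjusted p = 0.322). Markers of Bergmann glia and astrocytes were lower beside it in Q175 at 10 months (4 of 9 called: Gdf10, Slc1a2, Aqp4 and Aldh1l1), with a summed level of 3180 to 3360 CPM against 3390 to 3700 in WT and 3350 to 3640 in Q20. Markers of Golgi cells and molecular layer interneurons summed to 393 to 437 CPM in Q175, 436 to 489 in WT and 455 to 509 in Q20, with Slc6a5 and Nxph1 lower out of 7. Their part in the Grm3 value was not tested.

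Of 3 histamine receptors Hrh3 and Hrh1 fell. Hrh3 held 9.53, 14.9 and 20 CPM in WT, 12.8, 14.5 and 15.9 CPM in Q20 and 9.2, 11.8 and 14.6 CPM in Q175 at 10 months, so that the groups overlapped. Its log2 fold change was -0.29 (SE 0.087, adjusted p = 0.0237), lost when Q175 F2, F3 or M1 was left out (highest adjusted p 0.079) or when WT or Q20 alone was the control. At 6 months it was -0.35 (SE 0.084, adjusted p = 0.00802), with 10, 12.6 and 15.1 CPM in Q175, 12.6, 16.1 and 19.5 CPM in WT and 11.1, 12.9 and 18.9 CPM in Q20. It kept the call in the 24 fits without 1 library, but not against Q20 alone, whose range the Q175 libraries largely shared, or on FPKM values (adjusted p between 0.00254 and 0.209 over its alternatives). The 6 month fit against Q20 alone holds no name format covariate, since Q175 and Q20 differ in format. Hrh1, the excitatory H1 receptor, held 8.09, 8.61 and 9.72 CPM in WT, 7.46, 7.9 and 8.54 CPM in Q20 and 6.23, 7.14 and 7.95 CPM in Q175. Every Q175 library lay below the WT libraries, while Q20 and Q175 overlapped (log2 fold change -0.22, SE 0.062, adjusted p = 0.0131). Against Q20 alone it was -0.16, with an adjusted p of 0.224. Hrh2, the Gs-coupled H2 receptor, had an adjusted p of 0.243. Exons of Hrh3 overlap an unnamed gene model, Gm17180, on the opposite strand, and whether counting used strand is not given in the sources used here.

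The starts of the receptors that moved are shown for 2 that rose and 2 that fell, as background on the genes and with no claim on their control. RefSeq holds a window of 250 bases before to 50 after the start for 49 of the 60 receptors on GRCm38.p6, and the one nearest to the annotated gene start was taken. Capitals mark GC boxes (GGGCGG or CCGCCC) and CRE half-sites (TGACG or CGTCA), searched on both strands with overlapping matches counted singly, each window being written 5′ to 3′ on the strand of its gene.
Sstr3: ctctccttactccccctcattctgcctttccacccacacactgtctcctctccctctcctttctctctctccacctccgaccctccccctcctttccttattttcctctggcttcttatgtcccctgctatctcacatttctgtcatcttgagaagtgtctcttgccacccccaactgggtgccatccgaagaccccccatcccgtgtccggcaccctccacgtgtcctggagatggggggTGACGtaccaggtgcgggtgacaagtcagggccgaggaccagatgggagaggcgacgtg
Adra2c: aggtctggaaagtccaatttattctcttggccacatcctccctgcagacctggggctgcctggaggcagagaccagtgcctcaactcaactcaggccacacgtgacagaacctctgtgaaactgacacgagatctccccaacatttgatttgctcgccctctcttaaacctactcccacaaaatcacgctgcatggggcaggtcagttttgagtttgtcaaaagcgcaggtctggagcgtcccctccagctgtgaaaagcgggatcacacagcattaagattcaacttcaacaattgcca
Grm3: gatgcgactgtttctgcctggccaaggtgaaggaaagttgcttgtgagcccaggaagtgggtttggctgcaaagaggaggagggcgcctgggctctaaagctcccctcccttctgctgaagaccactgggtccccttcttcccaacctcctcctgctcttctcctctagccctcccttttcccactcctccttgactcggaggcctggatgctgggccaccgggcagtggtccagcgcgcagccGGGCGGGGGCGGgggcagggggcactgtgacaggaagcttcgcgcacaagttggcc
Hrh3: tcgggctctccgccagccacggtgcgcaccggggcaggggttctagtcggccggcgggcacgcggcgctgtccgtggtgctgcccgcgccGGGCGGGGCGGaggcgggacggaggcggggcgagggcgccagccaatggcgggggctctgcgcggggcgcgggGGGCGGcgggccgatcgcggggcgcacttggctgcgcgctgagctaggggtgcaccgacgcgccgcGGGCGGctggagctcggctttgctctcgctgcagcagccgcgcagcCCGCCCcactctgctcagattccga
The windows are chr15:78544296-78544595 (minus strand), chr5:35278316-35278615 (plus), chr5:9725303-9725602 (minus) and chr2:180104358-180104657 (minus). Their starts lie 340, 247, 182 and 81 bases from the gene starts of GENCODE. Sstr3 held no GC box and 1 CRE half-site, Adra2c neither, Grm3 2 GC boxes and Hrh3 5. A GC box was found in 29 of the 49 receptor windows (59.2%) and in 35.7% of 32851 windows of all genes, a CRE half-site in 6 of 49 (12.2%) and in 20.8%. A match is letters in this window and was not measured as a binding site.

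The other receptors of the granule cell axon did not pass in Q175 at 10 months. Gabbr1 held 626, 646 and 675 CPM in WT, 611, 638 and 666 CPM in Q20 and a median of 616 and a highest of 638 CPM in Q175 at 10 months, where 8 of 8 libraries lay below the control median. That difference, a log2 fold change of -0.08 (SE 0.03), had an adjusted p of 0.0991, and of 0.0145 without the Q92 library M2. Cnr1 held 451, 528 and 555 CPM in WT, 444, 493 and 535 CPM in Q20 and 414, 449 and 492 CPM in Q175, so the groups overlapped. Its log2 fold change of -0.17 (SE 0.058) had an adjusted p of 0.051, and of 0.00244 without that library. The combined slope of Cnr1 was called (adjusted p = 0.0431), but not against Q20 alone, on FPKM values or without the filter on low counts (highest adjusted p 0.109). Adora1 had a log2 fold change of 0.00 (SE 0.048), with libraries of 259 to 304 CPM in Q175, 265 to 297 in WT and 262 to 291 in Q20. Its exons overlap Mybph on the opposite strand.

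Other metabotropic glutamate receptors lay below the controls without passing at 10 months. Grm7 held 21 to 24.5 CPM in Q175, 21.3 to 26.9 in WT and 23.6 to 29.6 in Q20 (log2 fold change -0.19, SE 0.063, adjusted p = 0.0508), and passed without the Q92 library M2 (adjusted p = 0.00569). Grm2, Grm8 and Grm5 had -0.16 (SE 0.092), -0.07 (SE 0.084) and -0.12 (SE 0.14). Adora2b, the Gs-coupled A2B adenosine receptor, was called on the combined slope (adjusted p = 0.0148) with 1.87, 2.63 and 2.84 CPM in WT, 1.57, 2.26 and 3.09 CPM in Q20 and 1.49, 1.93 and 2.34 CPM in Q175 at 10 months. Its groups overlapped, and its Q175 value was -0.30 (SE 0.12, adjusted p = 0.11), or -0.31 without the Q92 library M2 (SE 0.11, adjusted p = 0.0422). The call on the combined slope was lost against WT or Q20 alone and with choroid plexus markers as a covariate (highest adjusted p 0.205).

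Htr7 and Drd2 passed in Q175 at 10 months at low levels, with a few control libraries far above the others. Htr7, a Gs-coupled serotonin receptor, held 0.697, 1.12 and 3.57 CPM in WT, 0.674, 1.34 and 4.69 CPM in Q20 and 0.565, 0.835 and 1.67 CPM in Q175. The Q175 libraries lay within or just below the control range, 6 of 8 below its median (log2 fold change -0.89, SE 0.27, adjusted p = 0.0231). Htr7 was about as low in Q80 (-0.81, SE 0.27), Q92 (-0.76, SE 0.27) and Q140 (-0.87, SE 0.28), but not in Q111 (-0.18, SE 0.27). None of these lines passed, and the values of 10 months were not graded by repeat length. Drd2, the D2 dopamine receptor, held 0.126, 0.411 and 1.15 CPM in WT, 0.223, 0.446 and 1.76 CPM in Q20 and 0.16, 0.245 and 0.33 CPM in Q175 (log2 fold change -1.08, SE 0.35, adjusted p = 0.0371). The highest control library of both was the Q20 female F5, whose sex-linked genes did not match its label. The Htr7 call was lost when Q175 F1, F4 or M4 was left out (highest adjusted p 0.0574), on FPKM values, against WT alone, with choroid plexus markers as a covariate and with the replicate block. The Drd2 call was lost without Q175 F1, F4, M1, M3 or M4, Q20 F5, or WT M2 or M4 (highest adjusted p 0.088), on FPKM values, against Q20 or WT alone, with choroid plexus markers as a covariate, with no filter and with the replicate block. Htr1a, called on the 10 month slope, went from 0.0312 to 3.32 CPM within Q20 alone, again with F5 highest, and that call was lost in 8 of 14 alternatives (highest adjusted p 0.429).

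Markers of tissue next to the cerebellum varied with these receptors from library to library. Over 166 libraries, Htr7 and the mean of 6 hindbrain Hox genes, which mark brainstem, had r = 0.825 and rho = 0.66 on a log2 scale. Both had a permutation p of 1e-05, the smallest that 100000 resamples can give, and adjusted p values of 5.81e-05 and 6.67e-05 over the 180 relations computed. Libraries of 2 months alone had r = 0.829, those of 6 months 0.685 and those of 10 months 0.895. The value was 0.789 without the 2 libraries farthest out. Summed Hox levels at 10 months ran from 0.0296 to 7.71 CPM in WT, from 0.245 to 16.5 in Q20 and from 0.0862 to 1.4 in Q175. In Q175, 2 of the 6 Hox genes passed, both lower. Drd2 and the mean of the forebrain and midbrain markers had r = 0.442 and rho = 0.253 (permutation p of 1e-05 and 0.00092, adjusted 5.81e-05 and 0.00276). That relation had r = 0.108 without the 2 libraries farthest out, so its r rests on them. With the Hox genes Drd2 had r = 0.521 and rho = 0.468 (permutation p of 1e-05 each, adjusted 5.81e-05 and 6.67e-05), and r = 0.434 without 2 libraries. By age that r was 0.632 (2 months), 0.227 (6 months) and 0.622 (10 months). Forebrain and midbrain markers summed to between 14.4 and 17 CPM in WT, 14 and 17.8 in Q20 and 12.8 and 14.6 in Q175 at 10 months. With forebrain and midbrain markers as a covariate the Q175 values were -0.60 for Htr7 (SE 0.26, adjusted p = 0.162) and -0.80 for Drd2 (SE 0.35, adjusted p = 0.182).

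**Figure D5:**
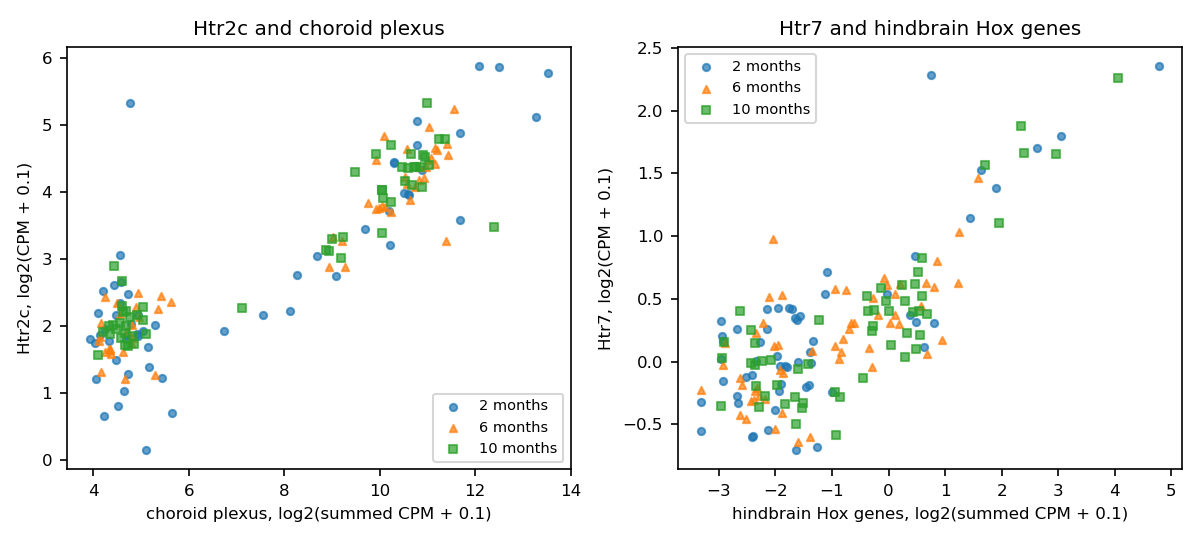
Each library's log2(CPM + 0.1) of Htr2c against that of choroid plexus markers (left) and of Htr7 against hindbrain Hox genes (right), with a symbol for each age. Libraries fall into a pair of clusters by choroid plexus markers, and Htr2c reaches 58.7 CPM in the upper one.

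Htr2c followed choroid plexus in the same way. The libraries form 2 clusters, and the relation was therefore taken within each. In the 84 libraries with at least 64 CPM of choroid plexus markers, Htr2c ran from 3.71 to 58.7 CPM with r = 0.898 and rho = 0.81 (permutation p of 1e-05 each, adjusted 2e-05 over 4 tests). Taken by age, r was 0.95 (2 months), 0.836 (6 months) and 0.828 (10 months), and without the 2 libraries farthest out 0.878. In the other 82 libraries Htr2c had a median of 3.65 CPM, with r = 0.3 and rho = 0.299 (permutation p of 0.00552 and 0.00645, adjusted 0.00645 each). Choroid plexus was present at that level in 5 of 8 WT, 7 of 8 Q20 and 4 of 8 Q175 libraries of 10 months, and Htr2c did not pass in Q175 (log2 fold change -0.82, SE 0.47, adjusted p = 0.324). The 6 receptors Grm4, Sstr3, Grm3, Adra2c, Hrh3 and Hrh1 kept their calls in Q175 at 10 months with choroid plexus or with forebrain and midbrain markers as a covariate. Hindbrain Hox genes were not fitted as a covariate.

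The remaining lines gave few receptor calls. No receptor passed in Q80 at any age, in Q92 at any age, in Q111 or Q140 at 2 and 6 months, or between Q20 and WT at 2 and 10 months. At an unadjusted p under 0.05 there were 13 receptors in Q140 at 10 months (1628 of all 20331 genes). At that age there were 7 in Q80 (1350 genes) and 5 in Q92 (3264 genes). There were 9 in Q92 at 2 months (1334 genes) and 1 between Q20 and WT at 10 months (284 genes). DESeq2 called 1 receptor in Q92 at 10 months and none in the other comparisons of this paragraph. The slope did not differ between males and females for any receptor (edgeR calling 4 genes in all). At an unadjusted p under 0.05 it gave 0 receptors and 298 of all genes.

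Age was compared in the controls, 10 against 2 months. The library labels of these ages are numbered in separate ranges, and what the numbers stand for is not given. Age and any difference between those ranges cannot be told apart. Of 60 receptors 15 passed, 10 higher and 5 lower, where 29.9% of all genes did. Grm4 fell from 393 ± 33.5 to 290 ± 45.2 CPM (n = 16 each, log2 fold change -0.43, SE 0.063, adjusted p = 1.36e-05), with libraries of 332 to 448 CPM at 2 months and 205 to 360 at 10 months. Sstr3 fell from 12.4 ± 1.19 to 9.92 ± 1.25 CPM (-0.33, SE 0.055, adjusted p = 7.63e-05). Its ranges of 10.9 to 14.7 and 7.29 to 12.2 CPM overlapped. Adra2c fell from 4.45 ± 1.6 to 3.23 ± 0.668 CPM (-0.42, SE 0.12, adjusted p = 0.00675). The adrenergic receptors Adra1b and Adra2b were lower by -0.31 (SE 0.094) and -0.28 (SE 0.097). Oxtr rose from 0.737 ± 0.182 to 1.17 ± 0.131 CPM (0.67, SE 0.1, adjusted p = 2.36e-05), with ranges of 0.48 to 1.05 and 0.954 to 1.44 CPM. The 10 month controls stand in both this comparison and that of Q175, where Grm4 was lower, Sstr3, Adra2c and Oxtr higher.

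Higher with age were also Hcrtr2, the orexin 2 receptor, and Adora3, the A3 adenosine receptor. Hcrtr2 went from 1.35 ± 0.315 to 2.25 ± 0.731 CPM (0.73, SE 0.14, adjusted p = 0.000256) and Adora3 from 0.274 ± 0.1 to 0.477 ± 0.14 CPM (0.81, SE 0.17, adjusted p = 0.00114). Exons of Adora3 overlap Tmigd3 on the same strand, so its counts cannot be told from those of that gene. Markers of microglia, a cell type that expresses Adora3 in mouse brain, rose with age (7 of 8). Granule cell markers were lower in 5 of 10 and Purkinje cell markers in 4 of 8, with 0 higher in either list, beside the fall of Grm4. The part of these markers in the receptor values was not tested. The other 7 were Chrm2 (0.40, SE 0.13), Grm5 (0.41, SE 0.15), Hrh2 (0.36, SE 0.13), Oprd1 (0.89, SE 0.28), Oprm1 (1.12, SE 0.41), Htr1f (1.02, SE 0.29) and Htr4 (1.04, SE 0.34), receptors for acetylcholine, glutamate, histamine, opioid peptides and serotonin. Oprm1, Htr1f and Htr4 were at 0 in the lowest 2 month library and had means of 0.113, 0.149 and 0.0934 CPM there. Without the libraries poor in long transcripts, 16 of which were of 2 months, 7 receptors passed: Grm4, Sstr3, Oxtr, Hcrtr2, Adora3 and Htr1f again, and Hrh3. With the under-representation of long transcripts fitted as a covariate, the Htr1f call was lost (adjusted p = 0.137).

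Proteins that act with the receptors were taken from 6 lists. The background for their counts was 13.7% of all genes on the combined slope and 9.94% in Q175 at 10 months. On that slope, 6 of 21 RGS proteins passed, which speed the end of G protein signals, 4 higher and 2 lower. Rgs9 held 4.8 ± 0.778 CPM in WT, 4.93 ± 0.689 in Q20 and 8.57 ± 0.751 in Q175 at 10 months, with no overlap between the lowest Q175 library (7.32 CPM) and the highest control one (5.94 CPM). Its log2 fold change was 0.82 (SE 0.12, adjusted p = 5.81e-07). Rgs17 rose as well (0.56, SE 0.093, adjusted p = 1.15e-05) and Rgs16 fell (-0.46, SE 0.079, adjusted p = 3.11e-05). Rgs4 was lower on the combined slope (adjusted p = 0.00145) with -0.35 (SE 0.14) in Q175 at 10 months.

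Among 15 effector channels, phospholipases and receptor partners, 3 passed on the combined slope, each higher (Kctd8, Kcnj3 and Homer2). In Q175 at 10 months 4 passed, Kcnj3 and Kctd8 higher and Plcb3, a phospholipase C, and Kctd12, another GABA-B auxiliary subunit, lower. Kcnj3, the GIRK1 channel that Gi-coupled receptors open, held 134, 145 and 160 CPM in WT, 135, 141 and 149 CPM in Q20 and 164, 171 and 193 CPM in Q175 at 10 months. The Q175 libraries lay above every control library (log2 fold change 0.28, SE 0.046, adjusted p = 1.17e-05). Kctd8, an auxiliary subunit of the GABA-B receptor, held 17.1, 19.8 and 23.3 CPM in WT, 18.4, 19.5 and 23.1 CPM in Q20 and 24.8, 28.6 and 29.7 CPM in Q175, again without overlap (0.49, SE 0.056, adjusted p = 2.53e-09). Homer2 had 0.15 (SE 0.076) in Q175 at 10 months and an adjusted p of 0.0443 on the combined slope.

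Of 8 receptor kinases and arrestins 3 passed on the combined slope, Grk3 and Grk5 lower and Grk6 higher, and in Q175 at 10 months Grk3 and Grk5 passed while Grk6 did not (adjusted p = 0.0512). Grk3, which phosphorylates active receptors, held 166 to 206 CPM in WT, 168 to 200 in Q20 and 139 to 162 in Q175 (-0.30, SE 0.059, adjusted p = 0.000178), without overlap. Grk5 had -0.46 (SE 0.084, adjusted p = 7.97e-05). Of 13 G protein alpha subunits Gna11 passed on the combined slope, higher. In Q175 at 10 months 3 passed, 2 higher and 1 lower, Gna11 (0.15, SE 0.038, adjusted p = 0.00509), Gnai2 and Gnal. Of 16 beta and gamma subunits 3 passed on the combined slope, Gng2, Gng7 and Gng12, each higher. In Q175 at 10 months Gng2 had 0.24 (SE 0.055, adjusted p = 0.0018) and Gng7 0.18 (SE 0.053, adjusted p = 0.0198). Gng12 had 0.09 there (SE 0.041) and was called on the combined slope alone. Of 22 ligand precursors and transmitter enzymes 5 passed on the combined slope, 3 higher and 2 lower, and 4 in Q175 at 10 months, 1 higher and 3 lower. Th, the rate-limiting enzyme of catecholamine synthesis, held 6.32 to 14.3 CPM in WT, 7.2 to 11 in Q20 and 4.21 to 8.48 in Q175 (-0.58, SE 0.14, adjusted p = 0.00238). Chat, which makes acetylcholine, had a median of 0.0454 CPM in WT, 0.0315 in Q20 and 0 in Q175. The enzymes of endocannabinoid breakdown, Faah and Mgll, were higher on the combined slope (adjusted p = 0.00133 and 0.0356), with 0.04 (SE 0.042) and 0.07 (SE 0.045) in Q175 at 10 months.

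Cell type markers moved beside these receptors on the combined slope. Oligodendrocyte markers were lower in 9 of 9 and hindbrain Hox genes in 5 of 6, granule cell markers were 3 higher and 3 lower of 10, and Purkinje cell markers had 1 of 8 lower. Both unipolar brush cell markers, 3 of 5 of meninges, 3 of 9 of Bergmann glia and astrocytes, 2 of 7 of Golgi cells and molecular layer interneurons, 1 of 7 of endothelial and mural cells, and 3 of 8 of monoamine and cholinergic neurons were lower. Pituitary hormones were higher in 2 of 3, and markers of microglia, of choroid plexus, and of forebrain and midbrain gave none. Summed pituitary markers were low: in Q175 at 6 months the median was 0.573 CPM and the highest library 11.9 CPM. Their medians at that age were 0.612 CPM in WT and 0.68 CPM in Q20, and in Q175 at 10 months 0 of 3 passed. Summed oligodendrocyte markers at 10 months ran from 4260 to 5710 CPM in WT, from 4850 to 6180 in Q20 and from 3250 to 4720 in Q175. Their part in the receptor values was not tested.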

How the data were processed

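Poly(A) RNA of 166 mouse cerebellum libraries was analysed from 2 deposited tables, in which the authors give expected counts and FPKM per gene. The deposited expected counts, of which 83.3% were whole numbers, were rounded and scaled to CPM (count over column sum). The FPKM values, normalized by the authors for transcript length and depth, were used for levels between genes. The submitters' notes name CASAVA 1.8.2, while for aligner, counter and genome build the entry is: not given in the sources used here. No column was left unmatched to a sample. Totals ran from 23448953 to 43066107 counts.

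Genes with at least 0.1 CPM in at least 8 libraries (20331) were fitted in edgeR 4.0.16 (R 4.3.3) with its quasi-likelihood test, per age over 7 genotypes, with sex as a covariate and, at 6 months, the library name format. WT and Q20 were the controls together, after the study's methods. At 6 months the name format as a covariate leaves Q175 compared with WT and the other expanded lines with Q20. Adjusted p values are Benjamini-Hochberg over all genes tested, with a threshold of 0.05, and the SE is the log2 fold change divided by the root of the F statistic. The labels number the libraries without naming litters or preparations, so p values measure the spread between these libraries, part of which may be technical. Slopes are log2 changes per 100 CAG. Z values of 6 and 10 months were combined by Stouffer's method with equal weights. A length index (long minus short transcripts, log2) had a median of 0.0061, and 21 libraries under a threshold of -0.0918 were marked. DESeq2 1.42.0, limma 3.58.1 on FPKM, other filters, controls, covariates, a replicate block and leaving out libraries were alternatives. Scripts were tested on simulated data.

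Receptors past the threshold in Q175 or the combined slope, or for age, are named with their values, and up to 4 genes of each pathway list with the smallest p. Htr1a, Gabbr1, Adora1, Grm7, Htr2c and other receptors outside that rule were added with their values in view. The members and lists were chosen with earlier results of these data known, and the coupling classes after the values were seen.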

Additional observations from a re-analysis of the deposited data

Results flagged for a closer look

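Among the receptors named for Q175 or the combined slope, 3 of 39 groups of 10 months had 1 library apart from the others, where chance flags about 1 in 20 groups. For Chrm4 in WT the female F3 held 2.19 CPM, the next library 1.66 CPM. For Drd2 in Q20 the female F5 held 1.76 CPM, the next 0.691 CPM, and this is a library whose sex-linked genes went against its label. For Sstr3 in Q20 the male M3 held 7.29 CPM, the next 9.57 CPM.

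The slope on CAG length differed between 10 and 2 months for 2 receptors, tested as an interaction in edgeR's quasi-likelihood fit. The difference was 0.273 per 100 CAG for Sstr3 (SE 0.065, adjusted p = 0.0285) and -0.293 for Grm4 (SE 0.076, adjusted p = 0.0483).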

How the results depend on the processing

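Of 952 alternative values of single receptors, 793 kept their direction and their side of the threshold, 159 lost the call and 0 turned. Receptors called in Q175 at 10 months (9) were 15 under DESeq2, 5 with WT alone as controls, 14 with a filter at 0.5 CPM, and 19 with the length index fitted, without the libraries low in it or without the Q92 library M2. Leaving out 1 library gave 6 to 11. In Q175 at 6 months (2) there were 4 with Q20 alone, 5 with the length index or without the library name format, 4 without libraries low in length index, and 2 to 2 leaving out 1 library. Fits of 6 months with Q20 alone held no name format covariate. The slope at 6 months (1) gave 2 under DESeq2 or with forebrain and midbrain markers, 3 with Q20 or WT alone, 4 with the length index and 5 without low libraries. The slope at 10 months (9) gave 4 with WT alone and 5 with forebrain and midbrain markers. The combined slope (11) gave 21 with the length index and 19 without low libraries, and age in controls (15) gave 7 and 7. The slope of 10 against 2 months (2) gave 1 on FPKM values with a pseudocount of 0.1 or 1 and 1 with no filter. In Q92 at 10 months (0) DESeq2 called 1. In Q111 at 10 months (1) there were 0 with DESeq2 size factors, on FPKM values with either pseudocount, with Q20 or WT alone, with choroid plexus or forebrain and midbrain markers, at 0.5 CPM, with no filter, with the replicate block and without libraries of unmatched sex genes. In Q140 at 10 months (2) there were 0 with Q20 or WT alone and 1 on FPKM values with either pseudocount, with choroid plexus or forebrain and midbrain markers, with no filter, with the replicate block and without libraries of unmatched sex genes. Covariates for forebrain and midbrain markers were chosen after seeing the data. The causes were not tested. Shares of all genes under the alternatives of this paragraph are not given here. Their counts therefore do not show whether receptors moved more than other genes.

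Replicate numbers were not taken to pair the samples, since the labels give no shared source and some same-numbered libraries did not deviate together. For Q175 and WT at 10 months these correlations ran from -0.308 to 0.256 (median 0.201), and 4 of 8 correlated best with their own number. The replicate block gave 6 receptors (1771 genes against 2021) in Q175 at 10 months, without Drd2, Htr7 and Oxtr, 2 at 6 months and 12 on the combined slope. Receptors under 1 CPM rest on few counts, and differences among them may not have been detectable at this depth.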
